A study of Mus musculus with 6 samples.

Results

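The genes described are those of translation initiation factor 2 (eIF2), of its nucleotide exchange factor eIF2B and of the partner factor eIF5. They are Eif2s1, Eif2s2, Eif2s3x and Eif2s3y for eIF2, Eif2b1 to Eif2b5 for eIF2B, and Eif5. These 10 genes were chosen by symbol from the 54532 genes of the deposited table, and all 10 met the filter on low values in both groups. Polyadenylated RNA of whole mouse testis was sequenced at an age of 9 postnatal days, a time at which germ cells of the first wave begin meiosis. The groups were 3 libraries labelled as conditional knockout of Ppp6r3 (Ppp6r3 cKO) and 3 labelled as wild type. The product of Ppp6r3 is a regulatory partner of the phosphatase PP6. Which Cre line was used, and which exons were removed, is not given in the labels. Nor do they tell whether each library is from its own animal, and p-values therefore cover the spread among these libraries only, which may be technical.

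eIF2 is a complex of alpha, beta and gamma subunits that, bound to GTP, carries the initiator methionyl-tRNA to the small ribosomal subunit. eIF5 triggers hydrolysis of that GTP when the start codon is found, and eIF2B then exchanges the GDP left on eIF2 for GTP so that eIF2 can be used again. Phosphorylation of the alpha subunit turns eIF2 into an inhibitor of eIF2B, which lowers initiation on most mRNAs and is the switch of the integrated stress response. In the mouse the gamma subunit has an X-linked gene and a Y-linked gene, and the Y-linked copy, Eif2s3y, is known for its role in the proliferation of spermatogonia. In humans, mutations of eIF2B subunits cause the brain disease vanishing white matter.

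Some features of the coding sequences bear on how the values can be read. They come from GENCODE M21 transcripts on GRCm38, the assembly also called mm10. The X and Y copies of the gamma subunit gene were compared to see whether reads can tell them apart. Their coding sequences have the same length, 1419 bases with the stop codon, and differ at 194 positions (identity 86.3%), of which 172 are at the third base of a codon. The 60-base window with the most differences, coding bases 601 to 660 of each, is shown with the 14 differing bases in capitals.
Eif2s3x: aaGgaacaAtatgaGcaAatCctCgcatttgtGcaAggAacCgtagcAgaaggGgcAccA
Eif2s3y: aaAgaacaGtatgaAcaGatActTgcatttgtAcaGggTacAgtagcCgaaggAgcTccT
No stretch of 50 bases of the Eif2s3y coding sequence occurs whole in that of Eif2s3x (0.0% of its 50-base windows). Reads of 50 bases or longer from the 2 coding sequences therefore differ at 1 base or more.

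Some other genes are closer in sequence. A search of all transcripts found the processed pseudogene Gm2223 on chromosome X, which is 100% identical to Eif2s3x over 1350 bases, and the processed pseudogene Gm9892 on chromosome 8, which is 99.5% identical to Eif2s2 over 992 bases. The stretches of Eif2s2 shown are the 3 runs of 5 or more lysine codons (capitals). In yeast, lysine blocks in this region of the beta subunit bind eIF5 and the catalytic subunit of eIF2B.
Eif2s2 coding bases 28 to 75: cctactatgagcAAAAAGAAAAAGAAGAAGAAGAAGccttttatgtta
Eif2s2 coding bases 223 to 264: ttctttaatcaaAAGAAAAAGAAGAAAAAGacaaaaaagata
Eif2s2 coding bases 358 to 399: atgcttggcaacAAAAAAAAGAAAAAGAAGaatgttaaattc
The alpha subunit gene carries the codon (capitals) of the serine that the stress kinases phosphorylate, serine 51 of the mature protein, which is codon 52 with the start codon counted. The RNA values below say nothing about that phosphorylation.
Eif2s1 coding bases 127 to 186: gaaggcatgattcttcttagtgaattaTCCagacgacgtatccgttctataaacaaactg

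The deposited values are FPKM, fragments scaled for depth and for the length of all annotated exons of a gene together. Single transcripts can be much shorter. The transcript with the longest coding sequence has 1555 bases for Eif2b3, whose exon length is 6520, and 2554 for Eif2b5, whose exon length is 2595. Levels, orders and ratios between genes therefore depend on the exon lengths used, while fold changes of 1 gene between groups do not. From the steps between the values, 16187812 to 16960175 fragments per library were recovered over all genes. Each member rested on 813 to 5138 fragments in each library. Fold changes are differences of log2(FPKM + 0.1), Ppp6r3 cKO over wild type, tested with limma. P-values were adjusted over the 17672 tested genes (Benjamini-Hochberg), and a gene "rose" or "fell" where the adjusted p was under 0.05. Ppp6r3 itself had 14.9 to 15.8 FPKM in Ppp6r3 cKO and 20.8 to 21.3 FPKM in wild type, and fell by 0.45 (SE 0.042, limma adjusted p = 0.000698). That value covers the whole tissue and the whole gene. Every germ cell, Sertoli, Leydig, myoid and endothelial marker looked up was above 0 in at least 1 library, and Sry was the only listed gene at 0 in all 6. In bulk tissue, fewer cells of a type and less RNA per cell cannot be told apart.

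Of the 10 genes, 5 fell, 1 rose and 4 did not pass. Over all genes tested 7.83% fell and 7.65% rose. Among the 5722 genes with a mean of at least 800 fragments, a depth comparable to that of the members, 9.93% fell and 12.9% rose. The genes that fell were Eif2s1, Eif2s2, Eif2s3y, Eif2b3 and Eif5, and the gene that rose was Eif2s3x. The libraries of the groups did not overlap in 7 of the 10, against 36.9% of all genes tested and 49.3% of those with a mean of at least 800 fragments. The median log2 fold change was -0.18 over the 10 genes and 0.0 over all genes tested. The changes were small. The largest, that of Eif2s2, was a fall of 22.2% in FPKM.

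**Figure D1:**
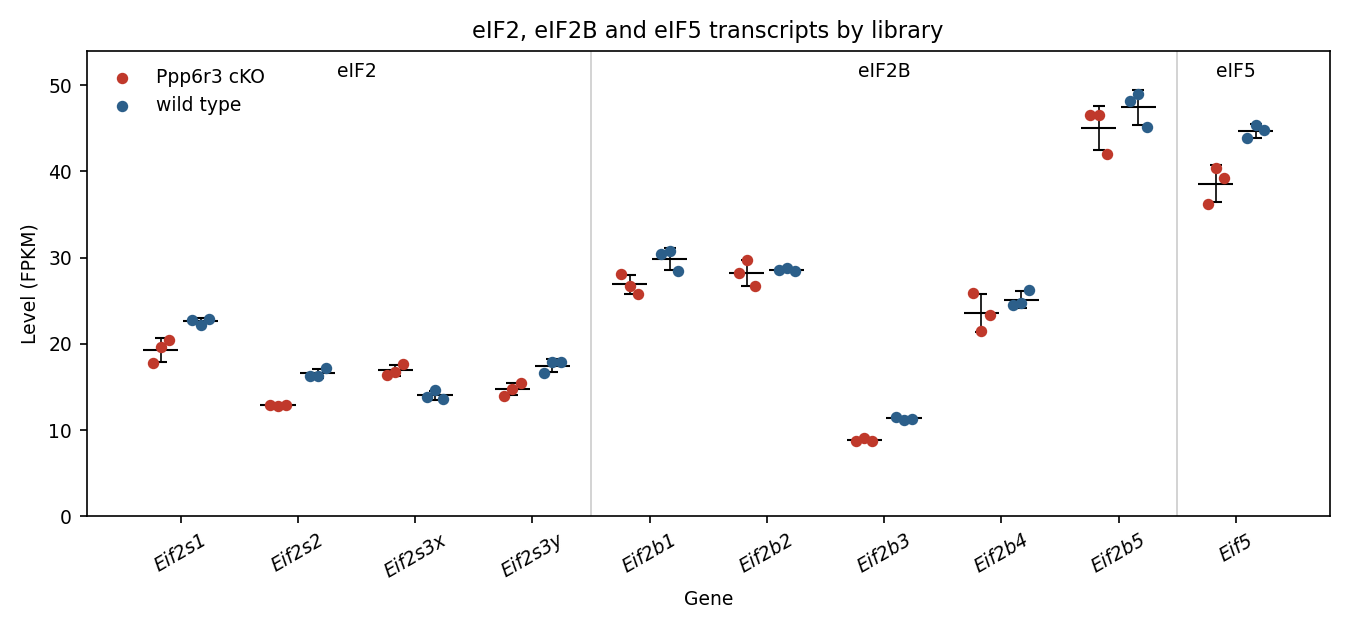
Level of each gene in FPKM (y axis) by gene (x axis), 1 point per library, with Ppp6r3 cKO left of wild type; lines and bars are the mean and SD of 3 libraries. Eif2s3x is the only one of the 10 with all Ppp6r3 cKO points above all wild-type points, and Eif2s1, Eif2s2, Eif2s3y, Eif2b1, Eif2b3 and Eif5 have all of them below.

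The alpha subunit gene, Eif2s1 (ENSMUSG00000021116, chromosome 12, 78861819 to 78887010, plus strand), had 17.8, 19.7 and 20.5 FPKM in Ppp6r3 cKO testis, against 22.8, 22.2 and 22.8 FPKM in wild-type testis. All 3 Ppp6r3 cKO libraries lay below the wild-type ones, and Ppp6r3 cKO replicate 1 was the lowest. The gene fell by 0.23 (SE 0.057, limma adjusted p = 0.0307). It did not pass without wild-type replicate 1 (-0.22), 2 (-0.24) or 3 (-0.22) or without Ppp6r3 cKO replicate 2 (-0.24), with adjusted p from 0.0569 to 0.094 in those limma fits. Its processed pseudogenes Gm12734 and Gm7459 held 0.249% of the fragments of the 3 genes together.

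The beta subunit gene, Eif2s2 (ENSMUSG00000074656, chromosome 2, 154871410 to 154892935, minus strand), had 12.9, 12.8 and 12.9 FPKM in Ppp6r3 cKO, against 16.2, 16.3 and 17.2 FPKM in wild type. The groups were well apart, and the 3 Ppp6r3 cKO values were close together. It fell by 0.36 (SE 0.043, limma adjusted p = 0.00211), and it passed under all 19 alternatives, with -0.37 to -0.33. The pseudogene Gm9892, which shares nearly the whole coding sequence shown in part above, had 10.6, 8.89 and 11.7 FPKM in Ppp6r3 cKO, against 11.4, 13.7 and 12.7 FPKM in wild type, and did not pass (log2 fold change -0.28, limma adjusted p = 0.121). The sources used here do not say how fragments were counted that match both, so the split between the gene and the pseudogene is uncertain. With the fragments of both added together the groups did not overlap, and the log2 ratio of the means was -0.35, beside -0.36 for Eif2s2 alone.

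The gamma subunit genes differed in opposite directions. Eif2s3x (ENSMUSG00000035150, chromosome X, 94188707 to 94212862, minus strand) had 16.4, 16.7 and 17.7 FPKM in Ppp6r3 cKO, against 13.8, 14.6 and 13.6 FPKM in wild type. It rose by 0.27 (SE 0.05, limma adjusted p = 0.0107), without overlap between the groups. The call held with each library left out in turn. Its processed pseudogenes Gm2223 and Eif2s3x-ps1 held 4.3% of the fragments of the 3 genes together. As for Eif2s2, the split between Eif2s3x and Gm2223 is uncertain, and with both pseudogenes added the log2 ratio was 0.25 beside 0.27 alone.

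Eif2s3y (ENSMUSG00000069049, chromosome Y, 1010543 to 1028847, plus strand) had 14.0, 14.8 and 15.4 FPKM in Ppp6r3 cKO, against 16.6, 17.9 and 17.9 FPKM in wild type. All Ppp6r3 cKO libraries were below all wild-type libraries. It fell by 0.24 (SE 0.054, limma adjusted p = 0.0208). The call was lost without wild-type replicate 2 (-0.23) or 3 (-0.22) or without Ppp6r3 cKO replicate 2 (-0.25), where limma adjusted p ran from 0.0512 to 0.0774, and the fall was 0.16 after a correction for GC content and length (limma adjusted p = 0.0272).

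In FPKM, the X and Y copies traded places in the order of levels. That order, the share and the sum rest on exon lengths of 3812 bases for Eif2s3x and 4161 for Eif2s3y. The transcripts with the longest coding sequence have 3647 and 1836 bases, so which copy is higher within a group is uncertain. From fragments without length scaling, the share of the Y copy differed by -8.91 percentage points, Ppp6r3 cKO minus wild type. In Ppp6r3 cKO all Eif2s3x values were above all Eif2s3y values, and in wild type all were below. The Y copy made up 46.0%, 47.0% and 46.6% of the gamma FPKM in Ppp6r3 cKO, against 54.6%, 55.0% and 56.9% in wild type. The difference in share, Ppp6r3 cKO minus wild type, was -8.94 percentage points (46.5% ± 0.476 in Ppp6r3 cKO and 55.5% ± 1.23 in wild type, SD, n = 3 each; 2-sided exact permutation p = 0.1, the smallest that 3 against 3 libraries allow). The summed level of the copies was 30.4, 31.4 and 33.1 FPKM in Ppp6r3 cKO, against 30.4, 32.5 and 31.5 FPKM in wild type, and these ranges overlapped.

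Other genes with an X and a Y copy gave no uniform picture. The Y share was 18.6% ± 0.377 in Ppp6r3 cKO and 19.0% ± 1.16 in wild type for Ddx3x and Ddx3y, which encode RNA helicases. The groups overlapped for that pair, for the demethylase genes Kdm5c and Kdm5d, and for the deubiquitinase genes Usp9x and Usp9y. For Kdm6a and Uty the Y share was 35.9% in Ppp6r3 cKO and 29.7% in wild type, and for the ubiquitin-activating enzyme genes Uba1 and Uba1y it was 33.7% in Ppp6r3 cKO and 29.2% in wild type. For the zinc finger genes Zfx and Zfy1 it was 7.07% in Ppp6r3 cKO and 11.3% in wild type. These values are means of 3 libraries, and the groups did not overlap in those 3 pairs. For the levels of single genes, the groups did not overlap in 36.9% of all genes tested. Among genes with a mean of at least 800 fragments that share was 49.3%. For Uba1 and Uba1y the gap was narrow, from 32.1% in wild-type replicate 2 to 32.4% in Ppp6r3 cKO replicate 3. Zfy1 rested on only 30 to 63 fragments per library. Zfy2, also on chromosome Y, is not part of that share. It had 0.371 FPKM in Ppp6r3 cKO and 0.424 FPKM in wild type on average. Its groups overlapped, and it did not pass (log2 fold change -0.13, limma adjusted p = 0.757). Of 13 tested genes, those of these pairs and Zfy2, Uba1y rose by 0.26 (limma adjusted p = 0.0487) and Zfy1 fell by 0.70 (limma adjusted p = 0.0224). These counts are near the shares over all genes tested, of which 7.65% rose and 7.83% fell. The call of Uba1y was lost without wild-type replicate 1 or 3 (0.22 each) or without any 1 Ppp6r3 cKO library (0.22 to 0.30). That of Zfy1 was lost without any 1 library other than Ppp6r3 cKO replicate 3 (-0.75 to -0.63), and its log2 fold change was -0.38 with a pseudocount of 1 FPKM.

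**Figure D2:**
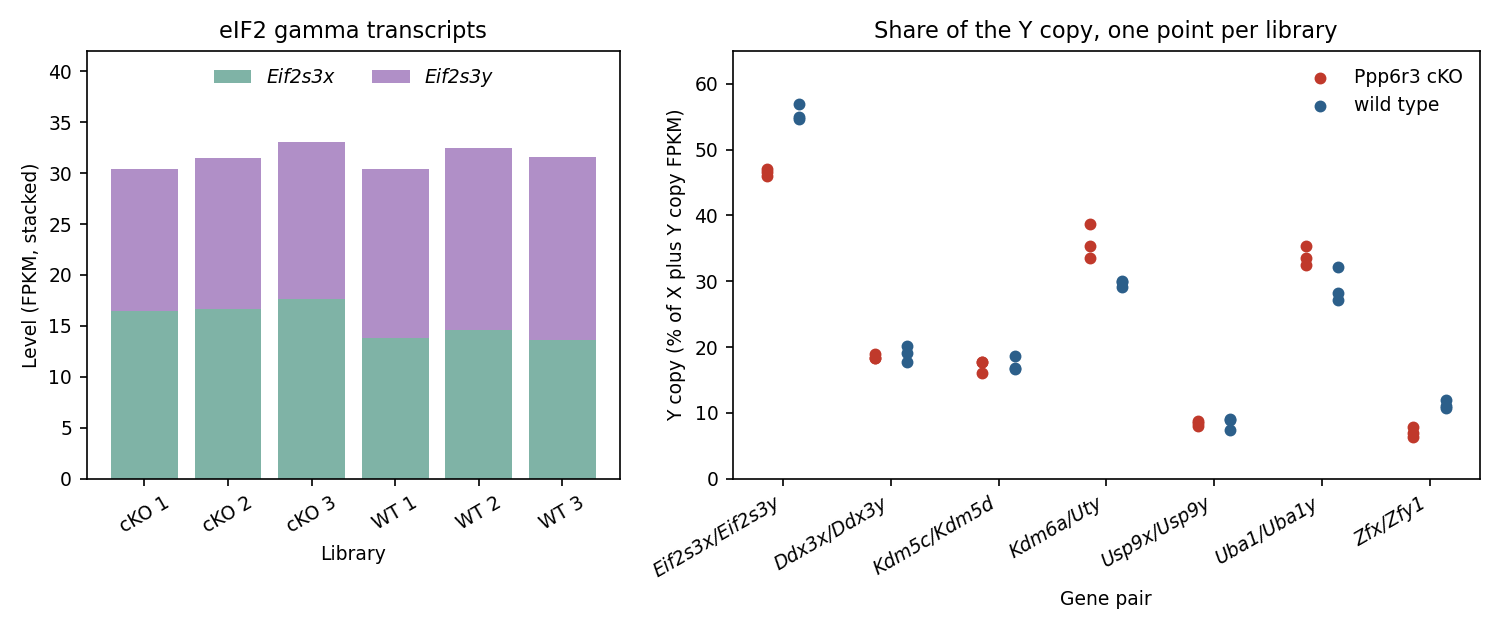
Left, stacked FPKM of Eif2s3x and Eif2s3y (y axis) in each library (x axis); right, the Y copy as a percentage of the FPKM of both copies (y axis) for each gene pair (x axis), 1 point per library, Ppp6r3 cKO left of wild type. The summed gamma level overlaps between groups, while the Eif2s3y share is 46.0% to 47.0% in Ppp6r3 cKO and 54.6% to 56.9% in wild type.

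Of the eIF2B genes, the one that fell was Eif2b3, which encodes the gamma subunit of the catalytic part (ENSMUSG00000028683, chromosome 4, 117019402 to 117087306, plus strand). It had 8.76, 9.10 and 8.77 FPKM in Ppp6r3 cKO, against 11.6, 11.2 and 11.3 FPKM in wild type. Both groups were tight and well apart. It fell by 0.35 (SE 0.046, limma adjusted p = 0.00286) and passed under all 19 alternatives, from -0.37 to -0.32. It also had the lowest FPKM of the 10 genes in both groups, on an exon length of 6520 bases. The transcript with its longest coding sequence has 1555 bases. Its 923 to 1252 fragments per library were not the fewest, as Eif2b2 had 813 to 902. No other gene similar to it, or to any other eIF2B gene, was found at 85% identity or more over at least 200 bases.

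Eif2b5 (ENSMUSG00000003235, chromosome 16, 20498817 to 20509323, plus strand) encodes the epsilon subunit, which carries the exchange activity. Its FPKM was the highest of the 10 genes in both groups. It had 46.6, 46.5 and 42.1 FPKM in Ppp6r3 cKO, against 48.2, 49.0 and 45.2 FPKM in wild type. The ranges overlapped and the gene did not pass (log2 fold change -0.08, 95% interval -0.2 to 0.05, limma adjusted p = 0.382). Set against its catalytic partner, Eif2b3 had 0.197 ± 0.0104 of the FPKM of Eif2b5 in Ppp6r3 cKO and 0.240 ± 0.0109 in wild type (SD, n = 3 each), without overlap. The size of this ratio rests on the exon lengths used, and its relative difference between the groups does not.

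The regulatory subunit genes of eIF2B, which sense phosphorylated eIF2 alpha, did not pass. Eif2b1 (alpha; ENSMUSG00000029388, chromosome 5, 124570213 to 124579131, minus strand) had 28.1, 26.7 and 25.8 FPKM in Ppp6r3 cKO, against 30.4, 30.8 and 28.4 FPKM in wild type. All Ppp6r3 cKO libraries were lower by a narrow gap (log2 fold change -0.15, 95% interval -0.26 to -0.04, limma adjusted p = 0.0762). It was called lower by 3 alternatives, voom on the recovered fragments (-0.15), quantile normalization (-0.16) and leaving out Ppp6r3 cKO replicate 1 (-0.18). After the GC and length correction it was at -0.08.

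Eif2b2 (beta; ENSMUSG00000004788, chromosome 12, 85219481 to 85226628, plus strand) had 28.3, 29.7 and 26.7 FPKM in Ppp6r3 cKO, against 28.6, 28.8 and 28.4 FPKM in wild type (log2 fold change -0.02, 95% interval -0.13 to 0.09, limma adjusted p = 0.817). Eif2b4 (delta; ENSMUSG00000029145, chromosome 5, 31187558 to 31193430, minus strand) had 25.8, 21.5 and 23.4 FPKM in Ppp6r3 cKO, against 24.5, 24.7 and 26.2 FPKM in wild type (log2 fold change -0.10, 95% interval -0.25 to 0.06, limma adjusted p = 0.382). The groups overlapped for both genes. The exons of Eif2b4 share 204 bases (7.85% of its exon length) with Snx17 on the other strand, and whether counting used the strand is not stated, so the value is uncertain to that extent. Summed over all eIF2B genes, the level was 132.6 ± 5.45 FPKM in Ppp6r3 cKO and 142.4 ± 2.56 FPKM in wild type (SD, n = 3 each). Eif2b3 made up 6.7% ± 0.292 of that sum in Ppp6r3 cKO and 7.98% ± 0.196 in wild type (SD, n = 3 each). Neither the sum nor the share overlapped between the groups, and both rest on the exon lengths used.

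**Figure D3:**
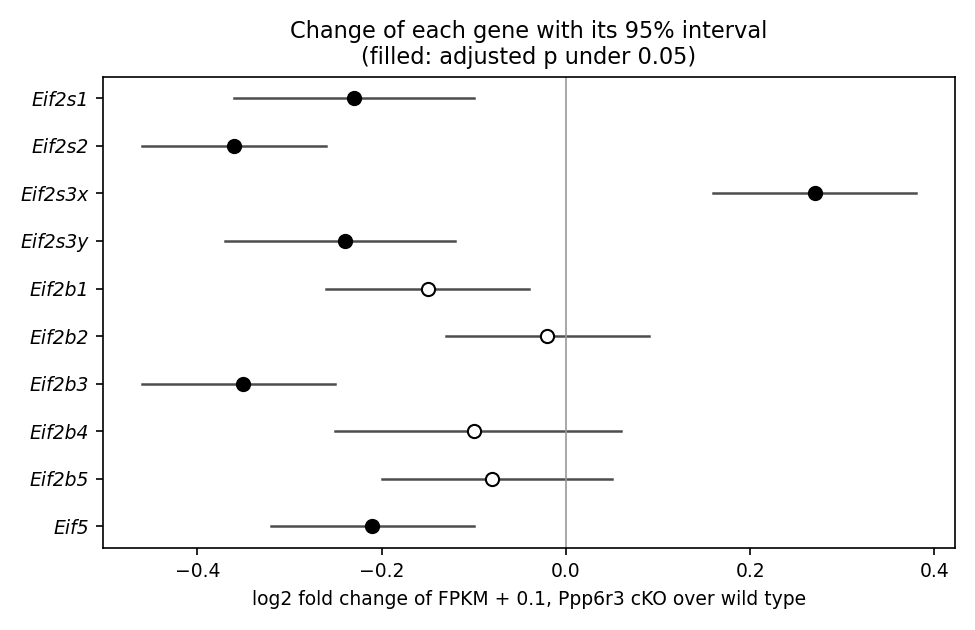
The log2 fold change of FPKM + 0.1, Ppp6r3 cKO over wild type (x axis), of each gene (y axis), with its 95% interval from limma; filled points have an adjusted p under 0.05. Eif2s2 (-0.36) and Eif2b3 (-0.35) stand furthest to the left and Eif2s3x (0.27) alone to the right.

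Eif5, the GTPase-activating partner of eIF2 (ENSMUSG00000021282, chromosome 12, 111538016 to 111546752, plus strand), had 36.2, 40.4 and 39.2 FPKM in Ppp6r3 cKO, against 43.9, 45.4 and 44.8 FPKM in wild type. All Ppp6r3 cKO values were below the wild-type ones, with Ppp6r3 cKO replicate 1 the lowest. It fell by 0.21 (SE 0.048, limma adjusted p = 0.022). The call was lost without wild-type replicate 1 (-0.23), 2 (-0.20) or 3 (-0.21), with limma adjusted p from 0.0506 to 0.0812. Of the similar transcripts found for Eif5, those in the table reached at most 0.227 FPKM.

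The balance between the subunit genes was then described per library, without a test. The summed gamma level was 2.46 ± 0.103 times that of Eif2s2 in Ppp6r3 cKO and 1.90 ± 0.0834 times in wild type (SD, n = 3 each). Against Eif2s1 it was 1.64 ± 0.0613 times in Ppp6r3 cKO and 1.39 ± 0.0639 times in wild type. Neither ratio overlapped between the groups. Eif5 stood at 2.0 ± 0.0745 times the level of Eif2s1 in Ppp6r3 cKO and 1.98 ± 0.0604 times in wild type, and that ratio overlapped, as did Eif2s2 over Eif2s1 (0.67 ± 0.0511 in Ppp6r3 cKO and 0.733 ± 0.0193 in wild type). Eif5 over Eif2s2 was 3.0 ± 0.181 in Ppp6r3 cKO and 2.7 ± 0.0903 in wild type. That ratio did not overlap, by a narrow gap from 2.79 to 2.8. These are ratios of FPKM, which rest on the exon lengths used, and not ratios of proteins.

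The order of FPKM, which rests on the exon lengths used, ran from Eif2b5 and Eif5 down to Eif2b3 in both groups. Eif2b5 and Eif5 overlapped in wild type (47.4 and 44.7 FPKM on average) but not in Ppp6r3 cKO (45.0 and 38.6 FPKM). Eif2b1 and Eif2b2 overlapped in both groups, as did Eif2b1 and Eif2b4 in Ppp6r3 cKO and Eif2s3y and Eif2s2 in wild type. The other neighbours in the order did not overlap.

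Markers of cell types differed between the same libraries, and their part in the values of the 10 genes was not tested. The counts stand beside the 7.65% of all tested genes that rose and the 7.83% that fell. Among genes with a mean of at least 800 fragments these shares were 12.9% and 9.93%. Whether a marker list differs from these shares was not tested. Of 26 genes of meiotic entry and prophase, all 26 fell, with a summed level of 257.5 to 268.3 FPKM in Ppp6r3 cKO and 477.4 to 481.5 FPKM in wild type. Of 10 genes shared by germ cells, 5 fell (summed 551.4 to 597.3 FPKM in Ppp6r3 cKO and 699.8 to 710.8 FPKM in wild type). Of 18 tested genes of undifferentiated spermatogonia, 6 rose (summed 197.5 to 205.1 FPKM in Ppp6r3 cKO and 169.3 to 178.8 FPKM in wild type). Of 9 endothelial genes 6 rose (summed 62.1 to 66.5 FPKM in Ppp6r3 cKO and 39.9 to 44.6 FPKM in wild type), and of 7 stromal genes 5 rose. Of 8 macrophage and leukocyte genes 3 rose, and of 9 Leydig cell genes 2 rose. Of 5 erythroid genes 3 fell, as did 3 of 6 myoid genes, and of 10 genes of differentiating spermatogonia 3 rose and 3 fell. The summed level of 13 Sertoli genes, of which 2 rose and 2 fell, was 3513.2 to 3683.8 FPKM in Ppp6r3 cKO and 3516.0 to 3615.5 FPKM in wild type.

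GC content also moved with the libraries. The median deviation of Ppp6r3 cKO replicate 1 from the gene means was -0.112 among genes of the lowest of 10 GC bins and 0.126 in the highest, and the median log2 fold change was -0.049 in the lowest bin and 0.089 in the highest. Eif2s3y (GC 37.3%), Eif2s2 (40.7%) and Eif2s1 (41.9%) lay in that lowest bin, which ends at 42.13%. After a correction for GC and length the log2 fold changes were -0.16 for Eif2s3y, -0.33 for Eif2s2, -0.19 for Eif2s1, -0.35 for Eif2b3, -0.20 for Eif5 and 0.32 for Eif2s3x, and all 6 passed (limma, adjusted p from 0.00196 to 0.0272). Without Ppp6r3 cKO replicate 1 the same 6 passed, with -0.21, -0.36, -0.17, -0.34, -0.17 and 0.29 in that order (limma, adjusted p from 0.00565 to 0.0409).

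**Figure D4:**
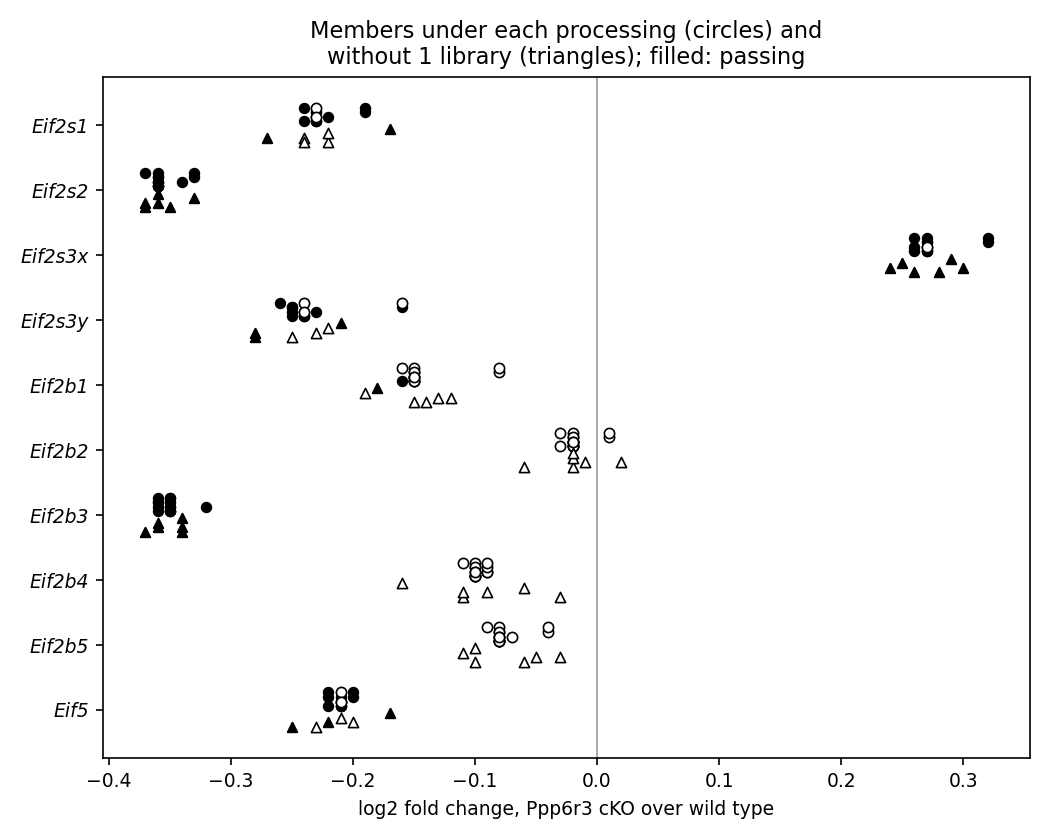
The log2 fold change, Ppp6r3 cKO over wild type (x axis), of each gene (y axis) under each way of processing (circles) and with 1 library left out (triangles); filled symbols passed. Eif2s2 and Eif2b3 are filled throughout, and Eif2s1, Eif2s3y and Eif5 lose their call without some libraries.

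The other genes of the initiation pathway were counted from lists, beside the 7.65% of all tested genes that rose and the 7.83% that fell. For genes with a mean of at least 800 fragments these shares were 12.9% and 9.93%. The list of eIF2 cycle partners is broad and includes Eif2a, Eif2d, Metap1 and Metap2. Of its 17 genes, 1 fell and 0 rose in limma, with a median log2 fold change of 0.03. At an unadjusted p under 0.05, 3 were lower and 1 was higher, and voom called 2 lower and 1 higher. The one that fell in limma was Eif1ad (36.0 ± 0.465 FPKM in Ppp6r3 cKO and 42.4 ± 2.85 FPKM in wild type, SD, n = 3 each), which fell by 0.23 (limma adjusted p = 0.0221). Its call was lost when replicate 2 or replicate 3 of either group was left out (-0.24 to -0.19). Eif5b, whose product joins the ribosomal subunits, was at -0.17 and did not pass (limma adjusted p = 0.0861). Cdc123, which helps assemble eIF2, was at -0.09 (limma adjusted p = 0.213).

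Of 14 genes of eIF3, the scaffold of the initiation complex, 2 rose and 0 fell in limma (median 0.04), and at an unadjusted p under 0.05, as with voom, the counts were also 2 and 0. Eif3f rose by 0.23 (limma adjusted p = 0.0214) and Eif3a rose by 0.14 (limma adjusted p = 0.032). Eif3f lost its call without replicate 2 of either group and without replicate 3 of wild type (0.20 to 0.25), and Eif3a without any 1 library other than Ppp6r3 cKO replicate 1 (0.13 to 0.16). The list of the eIF4 group, which handles the mRNA cap, also holds Pabpc1 and Eif4ebp1 to Eif4ebp3. Of its 14 genes, 5 rose (Eif4b, Eif4g1, Eif4ebp1, Eif4ebp2 and Pabpc1) and 0 fell in limma (median 0.05). Over all genes tested 7.65% rose, and 12.9% did among those with a mean of at least 800 fragments. At an unadjusted p under 0.05, as with voom, 5 were higher and 2 lower. The poly(A)-binding protein gene Pabpc1 had 111.3 ± 3.7 FPKM in Ppp6r3 cKO and 92.8 ± 1.69 FPKM in wild type (SD, n = 3 each) and rose by 0.26 (limma adjusted p = 0.00453), Eif4b rose by 0.21 and Eif4ebp2 by 0.18. Eif4ebp2 lost its call without any 1 wild-type library or Ppp6r3 cKO replicate 3 (0.18 to 0.20). Whether the eIF2 genes differ from these lists was not tested.

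The genes upstream of eIF2 alpha phosphorylation were counted next. Of 15 genes for eIF2 alpha kinases, phosphatases and their regulators, 1 fell and 0 rose in limma (median 0.03). At an unadjusted p under 0.05, 3 were higher and 2 lower, and voom called 2 higher and 1 lower. Dnajc3, which encodes an inhibitor of eIF2 alpha kinases, had 13.3 ± 0.321 FPKM in Ppp6r3 cKO and 17.3 ± 1.32 FPKM in wild type (SD, n = 3 each), and fell by 0.38 (limma adjusted p = 0.00604). The kinase genes Eif2ak1 to Eif2ak4 did not pass, with log2 fold changes of -0.10, 0.03, 0.18 and 0.06 in that order, and Eif2ak3 had an unadjusted limma p of 0.0382. The list of integrated stress response targets holds 36 genes, of which 6 rose, 1 fell and 29 did not pass in limma (median 0.07), beside the 7.65% of all tested genes that rose and the 7.83% that fell. Among genes with a mean of at least 800 fragments, 12.9% rose and 9.93% fell. At an unadjusted p under 0.05, 7 were higher and 4 lower, and voom called 7 higher and 3 lower. Stc2 rose by 0.48, Atf3 rose by 0.44 and Gpt2 fell by 0.29, all in limma. The call of Atf3 was lost without any 1 library other than Ppp6r3 cKO replicate 3 (0.35 to 0.48), and that of Gpt2 without wild-type replicate 2 (-0.29).

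**Figure D5:**
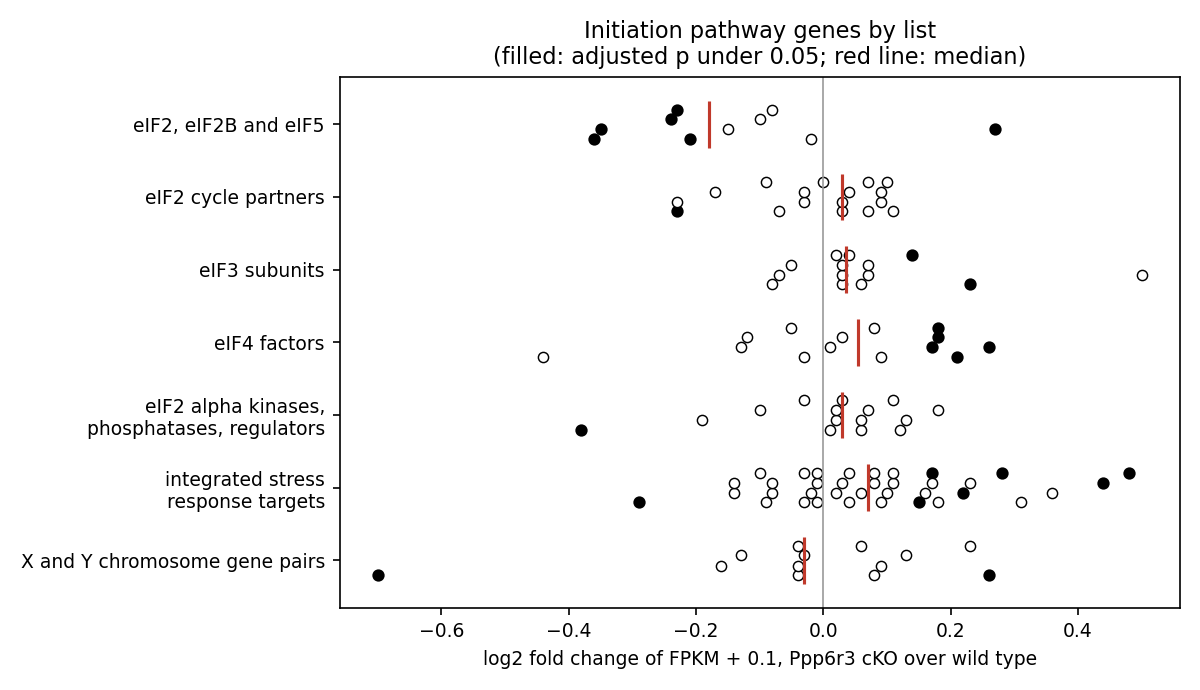
The log2 fold change of FPKM + 0.1, Ppp6r3 cKO over wild type (x axis), of every tested gene in each list (y axis); filled points have an adjusted p under 0.05 and the red line is the list's median. The median is -0.18 for eIF2, eIF2B and eIF5 and between -0.03 and 0.07 for the other lists.

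For the rising and the falling gene with the smallest p, the most similar profiles over the 6 libraries were looked up among 11964 other named protein-coding genes with a mean of at least 1 FPKM. The measure was the root mean square difference of the log2 values after each gene was centred. The nearest to Eif2s3x were Deptor (0.019), Adh1 (0.025) and BC067074 (0.027). The nearest to Eif2s2 were Pole (0.016), Garnl3 (0.017) and Pigu (0.029).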

How the data were processed

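The authors aligned paired-end reads to mm10 with HISAT2 2.0.5, per the series' design text. DESeq2 stands beside it among the authors' tools, per the submitters' processing notes. How fragments were counted, with which strand setting and annotation, was not stated in the sources. Libraries were made with a stranded KAPA kit, per the labels' protocols. The deposited table holds FPKM for 54532 genes, although it is labelled as raw counts. Its values times the GENCODE M21 exon length were whole multiples of 1 step per library for 97.0% of 32589 genes above 0 (tolerance 0.01 fragments), and for the other 964 with another length. This gave the fragments per gene. The median-ratio factor was 1.0037271 in every library, so the values already carry such a scaling, and the recovered totals are 101.36% to 103.17% of the FPKM denominators.

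Genes with at least 10 fragments in at least 3 libraries were tested with limma 3.58.1 in R 4.3.3 on log2(FPKM + 0.1), with trend and robust moderation. The members and lists were chosen with earlier results of these data known. Named genes were all members, Ppp6r3, up to 3 passing genes of largest change per pathway list, and the nearest profiles, with marker lists given as counts. Other genes named (Eif5b, Cdc123, the kinases, Eif4g1 and Eif4ebp1 among the passing eIF4 genes, the X and Y pairs that did not pass, Zfy2, Snx17 and the pseudogenes) were chosen after their values were seen. Of 243 list entries, 242 matched by GENCODE symbol and 1 through RefSeq. Similar transcripts were searched with BLAST 2.17.0. The limma step was also run on simulated data with the same dispersion for all genes and without the GC trend of these libraries. That run was a check of the code and does not bear on the calls made here. Within a group, pairs of libraries differed by more than counting error (chi-square over its degrees of freedom, 2.24 to 4.38), so none was counted as a repeat deposit of one library; separate preparations of one RNA sample could differ as much. Python 3.11.15, numpy 2.4.6, pandas 2.3.3 and scipy 1.17.1 were used. Alternatives changed the pseudocount, filter, model, scaling, GC and length correction (splines with 5 degrees of freedom), replicate block, moderation, threshold and libraries.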

Additional observations from a re-analysis of the deposited data

How the results depend on the processing

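No alternative reversed a called member, and Eif2s2 and Eif2b3 fell under all 19. Scaling by recovered fragment totals was chosen after seeing the data. With no low-value filter, limma called 1508 genes, 740 higher and 768 lower, and 2 members fell. The stricter threshold of 0.01 left 889 genes, 418 higher and 471 lower, with 2 members that fell and 0 that rose in limma (1 was higher at an unadjusted p under 0.05, and voom called 1). Voom called 4070 genes, of which 2105 rose. In the first, 32589 genes were tested and the variance moderation was fitted anew, and the cause of the lower count was not tested. The second follows from the stricter threshold, and the cause of the third was not tested. Leaving out 1 library at a time gave 1265 to 2457 called genes, of which 619 to 1144 were higher and 646 to 1313 lower. Of the members 2 to 6 fell and 1 rose: 3 fell without wild-type replicate 1, 2 without replicate 2 or 3, and 3 without Ppp6r3 cKO replicate 2. Fewer samples were then tested. The difference in the Eif2s3y share was then -9.4 to -8.24 percentage points.

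No pairing by replicate number was seen. Deviations of same-numbered libraries correlated at 0.016, -0.007 and -0.007, and those of other pairs across the groups at -0.023 to 0.029. Values this weak cannot exclude a pairing. With the replicate number as a block 2192 genes changed, 5 members fell and 1 rose. Together with the GC and length correction, the block left 4 members that fell, without Eif2s3y (-0.16).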
